A study of Mus musculus with 4 samples.

Results

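The genes described here encode histone lysine methyltransferases and demethylases outside the Polycomb complexes, together with Ash2l, a core subunit of the H3K4 methyltransferase complexes. They were taken by symbol from a list of 41 names, and all 41 were found among the 35147 genes of the deposited table. All 41 also passed the filter on low values (mean FPKM, fragments scaled by exon length and by library size, of at least 1 over the libraries), which 17651 genes passed. The tissue was the V-SVZ (ventricular-subventricular zone), a germinal zone beside the lateral ventricle, taken from CD1 wild-type mouse pups aged P7/P8. The lysate was precipitated with anti-4E-T antibody (2 libraries) or with control anti-IgG antibody (2 libraries), and the RNA that came down was sequenced. Each antibody was used once in each of 2 numbered experiments. No allele or drug distinguished the groups. The labels do not say whether the experiments came from separate animals or how many pups were pooled, so p-values measure the spread between these libraries, which may be technical. No library of input RNA was used here.

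Histone lysine methyltransferases write marks and demethylases erase them. Methylation of H3K4 marks active promoters and enhancers, that of H3K36 the bodies of transcribed genes, that of H3K79 elongating genes and that of H3K9 heterochromatin. Most of the writers carry a SET domain. Most of the erasers carry a Jumonji C domain, while Kdm1a and Kdm1b are flavin-dependent amine oxidases. In neural precursors these enzymes set which developmental genes stay available. 4E-T binds the cap-binding protein eIF4E and holds mRNAs in a translationally repressed state, in part in P-bodies. An RNA is called enriched with 4E-T here where its relative level was higher in the 4E-T precipitates than in those of control IgG. Values are scaled within each library, so they do not give the amount of an RNA that each antibody brought down.

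Gene reads recovered from the table numbered between 14421019 and 28749439 per library, with the fewest in IgG replicate 1. That library stood apart in some marker sets and IgG replicate 2 in others. Olfactory and vomeronasal receptor genes, which belong to the nose, took 0.0562% and 0.0142% of gene reads in 4E-T replicates 1 and 2, against 0.243% in IgG replicate 1 and 0.0424% in IgG replicate 2. Markers of endothelial and mural cells (9 of 9 in the table, none at 0) took 0.0227% and 0.0278% in 4E-T, against 0.0760% and 0.0350% in IgG. Astroglial and stem cell markers (9 of 9, none at 0) took 0.210% and 0.233% in 4E-T and 0.233% and 0.329% in IgG. Markers of dividing precursors (6 of 6, none at 0) took 0.135% and 0.0846% in 4E-T, against 0.0621% and 0.0546% in IgG. Oligodendrocyte markers (8 of 8, none at 0) took 0.199% and 0.225% in 4E-T and 0.241% and 0.386% in IgG, and microglial markers (7 of 7, none at 0) took 0.0432% and 0.0389% in 4E-T and 0.0550% and 0.0733% in IgG. Ependymal markers (6 of 6) took 0.0122% and 0.0108% in 4E-T and 0.0179% and 0.0178% in IgG, and red blood cell markers (4 of 5) 0.0466% and 0.0336% in 4E-T and 0.0750% and 0.0527% in IgG. The part of these differences in the results below was not tested. In bulk precipitates, fewer cells of a type, less RNA per cell and less of that RNA brought down by an antibody cannot be told apart.

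RNAs of histone lysine methyltransferases and demethylases were a larger part of the 4E-T precipitates than of the IgG precipitates. The 41 genes together took 0.583% of gene reads in 4E-T replicate 1 (95% Wilson interval 0.5797 to 0.586) and 0.526% in 4E-T replicate 2 (0.5231 to 0.5284). They took 0.411% in IgG replicate 1 (0.408 to 0.4146) and 0.406% in IgG replicate 2 (0.4037 to 0.4087), so the groups did not overlap and the IgG libraries lay close to each other. The intervals cover counting error only. On the log2(FPKM + 1) scale 40 of 41 genes had a fold change above 0, against 65.7% of all tested genes. After quantile normalization 33 of 41 did, against 48.8%, and on recovered reads 38 of 41 did, against 45.7%. The genes that went below 0 with quantile normalization were Nsd1, Nsd2, Ash2l, Ehmt2, Kdm3b, Kdm4b and Kdm5c, beside Setd7, which was below 0 on each scale, and on recovered reads they were Ehmt2, Kdm5c and Setd7. The median log2 fold change of the 41 genes was 0.56, against 0.18 for all tested genes. It came to 0.32 without IgG replicate 1 and to 0.90 without IgG replicate 2, and the distance from all genes to 0.32 and 0.44. On recovered reads the medians without these libraries, each left out in turn, were 0.36 and 0.40, and the distances 0.36 and 0.42. With the experiment block and all 4 libraries, recovered reads gave medians of 0.36 for the 41 genes and -0.06 for all tested genes. The distance between members and all genes was thus 0.38 on FPKM and 0.42 on reads.

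With all 4 libraries, members passed a test in the fits that had the experiment number as a block and in none of those without it. Without that block, limma called 0 of the 41 genes. Before adjustment 10 of 41 had a p under 0.05 and lay higher and 0 lay lower, against 1982 and 315 of the 17651 tested genes. Over all tested genes that fit called 0.00567% higher. The other fits without a block on all 4 libraries, quantile normalization and limma-voom on recovered reads, also called 0. At an unadjusted p under 0.05 they had 11 and 12 of the 41 genes higher, against 1762 and 1982 of the 17651 tested genes. With the block, limma on FPKM called 18 of 41 genes higher (43.9%) and 0 lower, against 17.5% of all tested genes higher and 4.44% lower. After quantile normalization 10 of 41 were higher (24.4%) and 0 lower, against 10.4% and 9.23% of all genes. In limma-voom on recovered reads, with library scaling by the TMM method (trimmed mean of M-values), 14 of 41 were higher (34.1%) and 1 was lower, against 13.6% and 11.0%. All 3 blocked fits called Kmt2e, Kmt2d, Kmt2a, Setd2, Suv39h1, Dot1l, Kdm8, Kdm3a and Jmjd1c. Of the 41 genes, 15 were higher with an adjusted p below 0.05 in the authors' deposited table, against 10.7% of the genes with an adjusted p there. All 15 were among the 18. A blocked fit leaves 1 residual degree of freedom, and on FPKM and on reads a trend over all genes supplied the spread used for most of them, so the p-values say little of the variation of any one gene.

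**Figure D1:**
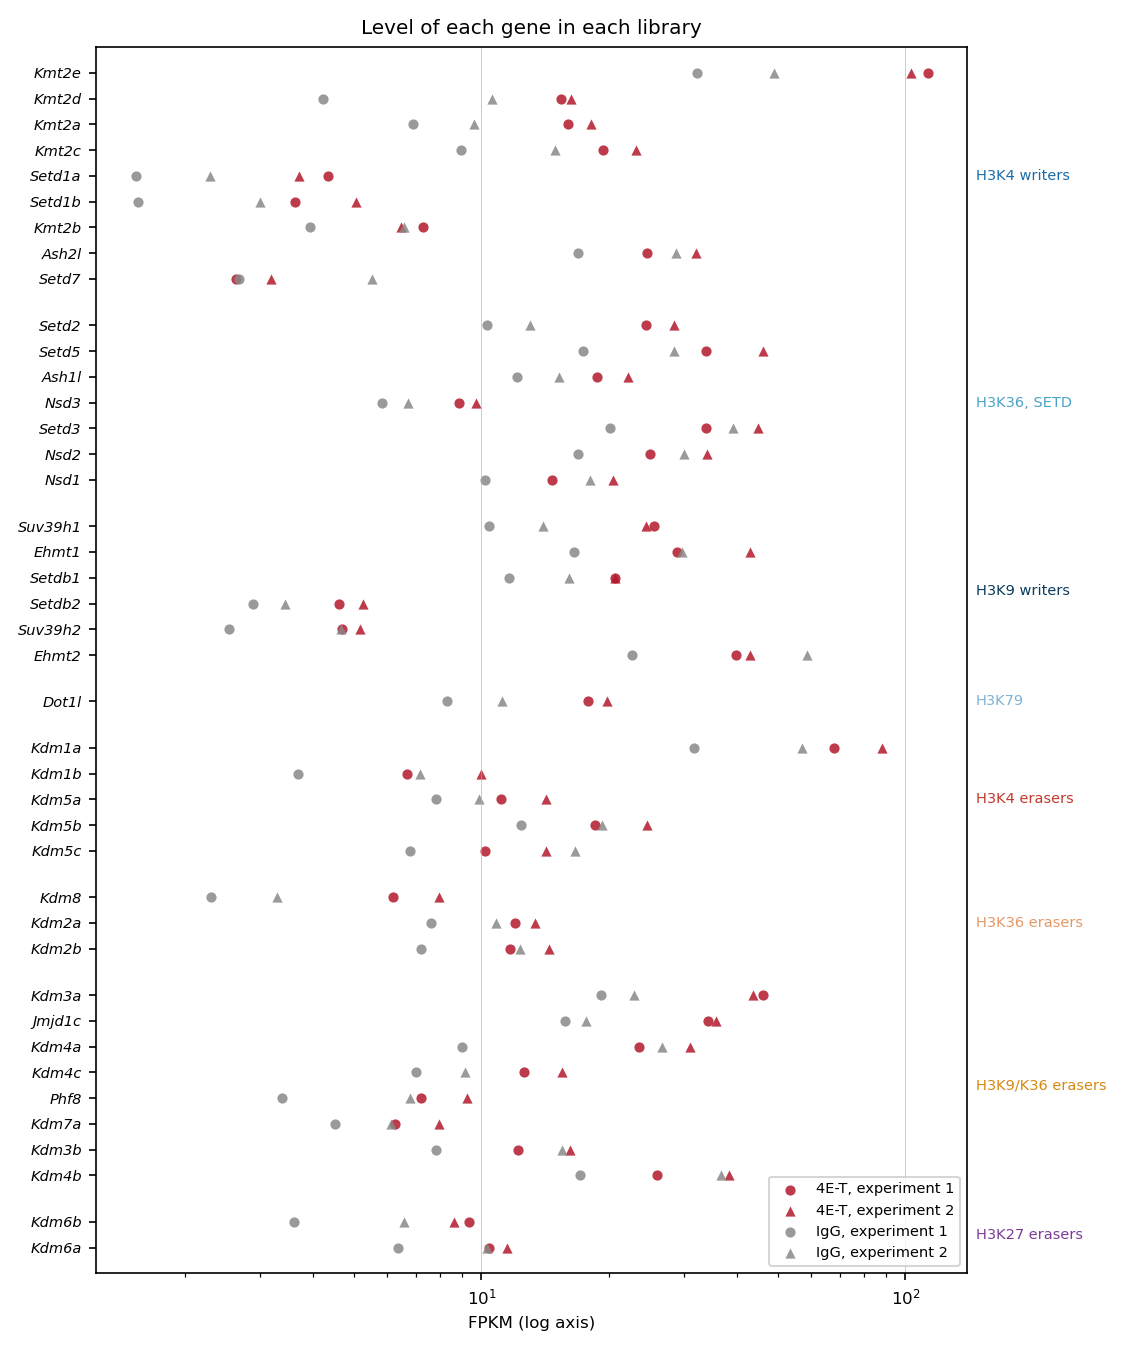
FPKM (log axis) of each of the 41 genes in each library, grouped by the residue the enzyme acts on; red marks are 4E-T libraries, grey marks IgG libraries, circles experiment 1 and triangles experiment 2. In 26 of 41 genes both 4E-T libraries lay above both IgG libraries. IgG replicate 1 had the lowest FPKM in 40 of 41 genes, Setd7 being the exception, but the FPKM scale differs between libraries. Counted in reads, the 41 genes together made up 0.411% of IgG replicate 1 and 0.406% of IgG replicate 2. By that measure IgG replicate 1 was not the lowest.

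Levels differed widely among the 41 genes, and the order of neighbours was mostly within their spread. Kmt2e had the highest mean level over the 4 libraries, 74.3 FPKM, followed by Kdm1a with 61.2 and Ehmt2 with 41.1. The order came from the 4E-T libraries. Kmt2e, Kdm1a and Ehmt2 averaged 108, 77.9 and 41.5 FPKM in 4E-T, against 40.6, 44.5 and 40.7 in IgG. The libraries of these 3 genes spanned 32.2 to 113, 31.8 to 88.0 and 22.7 to 58.7 FPKM, so their ranges overlapped. At the low end stood Setd7, Setd1b and Setd1a with means of 3.51, 3.32 and 2.97 FPKM and overlapping ranges. On FPKM, 26 of 41 genes (63.4%) had both 4E-T values above both IgG values, against 32.6% of all tested genes. On recovered reads scaled by TMM there were 28 (68.3%), against 26.1%.

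How many of the H3K4 methyltransferases passed depended on the fit. Of 9 genes in the group, Ash2l included, 6 rose with the block on FPKM (Kmt2a, Kmt2c, Kmt2d, Kmt2e, Setd1a and Setd1b), 5 rose on recovered reads and 3 after quantile normalization. The shares of all tested genes that rose in these fits were 17.5%, 13.6% and 10.4%. Setd7 fell on recovered reads alone. Kmt2e, which has a SET domain but is known as a reader of methylated H3K4 rather than as an active enzyme, had 113 and 103 FPKM in 4E-T replicates 1 and 2, against 32.2 and 49 in IgG replicates 1 and 2. The 4E-T values lay far above both IgG values. Its log2 fold change was the largest of the 41 genes, 1.42 (SE 0.30, limma with the block, adjusted p = 8.03e-05), and 1.16 on recovered reads (SE 0.27, adjusted p = 0.000308). Without the block it did not pass (limma adjusted p = 0.257).

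Kmt2d, the large enhancer H3K4 methyltransferase, had 15.4 and 16.3 FPKM in 4E-T, against 4.22 and 10.6 in IgG. The 4E-T libraries were close to each other and the IgG libraries lay apart. The gene rose by 1.11 on the log2 scale (SE 0.26, limma with the block, adjusted p = 0.000314), with 1.65 in experiment 1 and 0.58 in experiment 2. It came to 0.54 without IgG replicate 1 and to 1.69 without IgG replicate 2. Kmt2c, its paralogue in the same kind of complex, had 19.4 and 23.2 FPKM in 4E-T, against 8.95 and 14.9 in IgG, without overlap. The log2 fold change of 0.82 passed on FPKM (limma with the block, adjusted p = 0.0163) and missed on recovered reads (adjusted p = 0.0555), and it was 0.48 without IgG replicate 1. Kmt2a, the founding MLL gene, had 16.0 and 18.1 FPKM in 4E-T, against 6.88 and 9.61 in IgG. It rose by 0.98 on the log2 scale (limma with the block, adjusted p = 0.00219), with 1.11 and 0.85 in experiments 1 and 2. Kmt2b, the closest relative of Kmt2a, had 7.29 and 6.46 FPKM in 4E-T and 3.93 and 6.58 in IgG, so its groups overlapped. Its log2 fold change of 0.36 did not pass (limma with the block, adjusted p = 0.323). The difference between the 2 relatives was not tested.

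Setd1a and Setd1b, the catalytic subunits of the complexes that place most promoter H3K4 trimethylation, were the lowest expressed of the group. Setd1a had 4.35 and 3.72 FPKM in 4E-T, against 1.53 and 2.29 in IgG. Setd1b had 3.63 and 5.07 FPKM in 4E-T, against 1.55 and 3.01 in IgG. Neither pair of groups overlapped. Setd1a rose by 0.80 and Setd1b by 0.73 on the log2 scale (limma with the block, adjusted p = 0.0123 and 0.0226), and the value of Setd1b was 0.40 without IgG replicate 1. Both also rose on recovered reads (limma adjusted p = 0.00383 and 0.00840), where Setd1a rested on 663 and 552 reads in 4E-T and 210 and 322 in IgG. Ash2l, the shared core subunit, had 24.6 and 32.0 FPKM in 4E-T and 16.9 and 28.7 in IgG, a log2 fold change of 0.34 that did not pass (limma with the block, adjusted p = 0.460) and of -0.07 after quantile normalization.

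Setd7, which methylates H3K4 in vitro and many other proteins, was the only member with a fold change below 0 on every scale. It had 2.63 and 3.19 FPKM in 4E-T, against 2.68 and 5.52 in IgG. In recovered reads scaled by TMM, in CPM, it had 19.8 and 19.5 in 4E-T, against 26.2 and 38.6 in IgG, so both 4E-T values lay under both IgG values. Its log2 fold change was -0.71 on reads (SE 0.21, limma-voom with the block, adjusted p = 0.00602) and -0.33 on FPKM, where it did not pass (limma with the block, adjusted p = 0.389). Without IgG replicate 2 the FPKM value was 0.08.

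**Figure D2:**
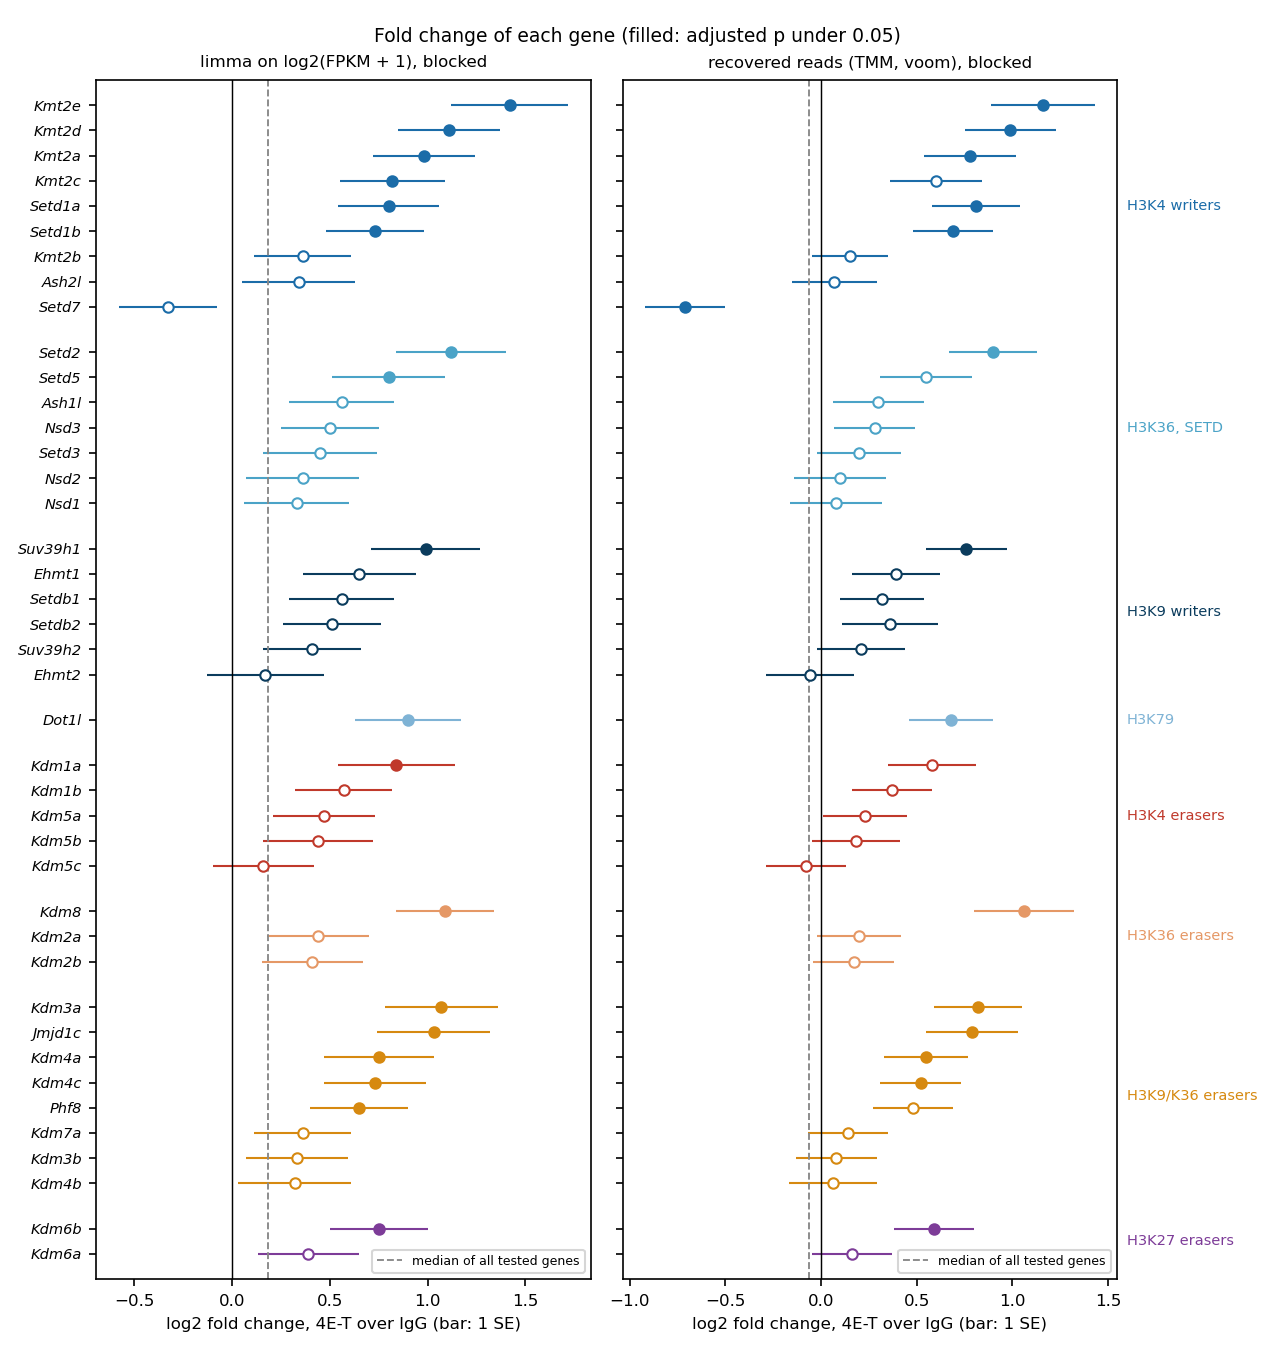
Log2 fold change of 4E-T over IgG with 1 standard error for each of the 41 genes, from limma with the experiment block on log2(FPKM + 1) (left) and on recovered reads (right); filled points have an adjusted p under 0.05 and the dashed line is the median of all tested genes. Kmt2e lies farthest right in both panels at 1.42 and 1.16, Setd7 lies left of 0 in both, and the medians of the 41 genes are 0.56 (left) and 0.36 (right).

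Among the H3K36 methyltransferases and the SETD proteins grouped with them, 2 of 7 genes rose with the block on FPKM, where 17.5% of all tested genes did, and 1 of 7 on recovered reads, where 13.6% did. The share on reads is close to that of all genes. Setd2, the enzyme of H3K36 trimethylation, had 24.4 and 28.4 FPKM in 4E-T, against 10.3 and 13.0 in IgG. The lowest 4E-T value was well above the highest IgG value. Setd2 rose by 1.12 on the log2 scale (SE 0.28, limma with the block, adjusted p = 0.000730), and the experiments gave 1.17 and 1.08. On recovered reads it was 0.90 (SE 0.23, limma adjusted p = 0.00103). Setd5, a SET domain protein whose own enzyme activity is debated, had 33.9 and 46.2 FPKM in 4E-T, against 17.4 and 28.5 in IgG. It passed on FPKM only (log2 fold change 0.80, limma with the block, adjusted p = 0.0316), with 0.46 without IgG replicate 1. Setd3, known as an actin histidine methyltransferase, had 33.8 and 44.8 FPKM in 4E-T and 20.1 and 39.3 in IgG. Its groups overlapped and its log2 fold change of 0.45 did not pass (limma with the block, adjusted p = 0.293). Nsd1, an enzyme of H3K36 dimethylation, had 14.7 and 20.4 FPKM in 4E-T and 10.2 and 18.0 in IgG, with a log2 fold change of 0.33 on FPKM, 0.08 on reads and -0.05 after quantile normalization. Its relatives Nsd2 and Nsd3 and the H3K36 methyltransferase Ash1l had log2 fold changes of 0.36, 0.50 and 0.56, and did not pass.

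Among the H3K9 methyltransferases only Suv39h1 passed, in each of the 3 blocked fits. That is 1 of 6 genes, where 17.5% of all tested genes rose on FPKM, 13.6% on recovered reads and 10.4% after quantile normalization. Suv39h1, which trimethylates H3K9 at pericentric heterochromatin, had 25.5 and 24.4 FPKM in 4E-T, against 10.4 and 14.0 in IgG. The 4E-T libraries were nearly level on FPKM. In recovered reads scaled by TMM they were at 80.8 and 62.6 CPM, against 42.6 and 41.2 in IgG. The fold change on the log2 scale was 0.99 (SE 0.28, limma with the block, adjusted p = 0.00341). Its paralogue Suv39h2 had a log2 fold change of 0.41 that did not pass (limma with the block, adjusted p = 0.253). Ehmt2, which dimethylates H3K9 together with Ehmt1, had the highest level of the group and moved in opposite directions in the experiments. It had 39.8 and 43.1 FPKM in 4E-T, against 22.7 and 58.7 in IgG. The log2 ratio was 0.78 in experiment 1 and -0.44 in experiment 2. Ehmt1, Setdb1 and Setdb2 had log2 fold changes of 0.65, 0.56 and 0.51 (limma with the block, adjusted p = 0.0935, 0.132 and 0.128). Dot1l, the only H3K79 methyltransferase, had 17.8 and 19.8 FPKM in 4E-T, against 8.30 and 11.2 in IgG. It rose by 0.90 on the log2 scale (SE 0.27, limma with the block, adjusted p = 0.00651) and in both other blocked fits.

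With the block on FPKM 8 of 18 demethylases rose, beside 10 of 23 methyltransferases and Ash2l and 17.5% of all tested genes. On recovered reads 6 of 18 rose, beside 8 of 23 and 13.6% of all tested genes. Without the block limma called 0 in either group. The median log2 fold change on FPKM was 0.52 for the demethylases and 0.56 for the methyltransferases and Ash2l. The difference between writers and erasers was not tested.

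Kdm1a, the amine oxidase LSD1 that removes H3K4 methyl groups, was the most abundant demethylase RNA. It had 67.8 and 88.0 FPKM in 4E-T, against 31.8 and 57.2 in IgG. The groups did not overlap. The log2 fold change of 0.84 passed on FPKM (SE 0.30, limma with the block, adjusted p = 0.0292) and after quantile normalization (adjusted p = 0.0191), and missed on recovered reads (adjusted p = 0.0528). It was 0.43 without IgG replicate 1. The other H3K4 demethylases did not pass, so 1 of 5 rose with the block on FPKM, where 17.5% of all tested genes did. Kdm5c, the X-linked member of the KDM5 family, had 10.2 and 14.2 FPKM in 4E-T and 6.78 and 16.6 in IgG, with log2 ratios of 0.53 in experiment 1 and -0.21 in experiment 2. Kdm1b, Kdm5a and Kdm5b had log2 fold changes of 0.57, 0.47 and 0.44.

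Kdm8, described as an H3K36 demethylase and also as a hydroxylase, had like ratios in both experiments. It had 6.18 and 7.92 FPKM in 4E-T, against 2.30 and 3.30 in IgG. These rested on 347 and 433 reads in 4E-T and 116 and 171 reads in IgG. The log2 fold change was 1.09 (SE 0.25, limma with the block, adjusted p = 0.000211), with 1.12 and 1.05 in experiments 1 and 2, and 1.06 on recovered reads. It had the lowest adjusted p of the 41 genes without the block, 0.223 in limma. Kdm2b, an H3K36 demethylase that also recruits a Polycomb complex to CpG islands, had 11.7 and 14.4 FPKM in 4E-T and 7.21 and 12.3 in IgG. Its log2 fold change of 0.41 did not pass, nor did that of Kdm2a, 0.44 (limma with the block, adjusted p = 0.274 and 0.235). Thus 1 of the 3 H3K36 demethylases rose in each blocked fit. Of all tested genes 17.5% rose on FPKM, 13.6% on recovered reads and 10.4% after quantile normalization.

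The H3K9 demethylases divided into 5 genes that rose with the block on FPKM and 3 that did not pass. In that fit 17.5% of all tested genes rose. Kdm3a, which removes H3K9 mono- and dimethylation, had 46.1 and 43.8 FPKM in 4E-T, against 19.1 and 22.9 in IgG. Jmjd1c, its relative of disputed activity, had 34.2 and 35.7 FPKM in 4E-T, against 15.7 and 17.6 in IgG. Within each group these FPKM values were close, and the gap between groups was several times that spread. Recovered reads scaled by TMM lay further apart within groups. In CPM, Kdm3a had 228 and 175 in 4E-T, against 122 and 105 in IgG. Jmjd1c had 300.3 and 253 CPM in 4E-T, against 179 and 143 in IgG. Kdm3a rose by 1.07 and Jmjd1c by 1.03 on the log2 scale (limma with the block, adjusted p = 0.00270 and 0.00345), and on recovered reads by 0.82 and 0.79. Kdm3b, the third of that family, had a log2 fold change of 0.33 that did not pass.

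Of the KDM4 genes, whose products act on H3K9 and H3K36 trimethylation, Kdm4c had 12.6 and 15.5 FPKM in 4E-T, against 7.01 and 9.13 in IgG. It rose by 0.73 on the log2 scale (limma with the block, adjusted p = 0.0266) and also on recovered reads (adjusted p = 0.0484). Kdm4a had 23.5 and 31 FPKM in 4E-T, against 9.0 and 26.7 in IgG, so its groups overlapped. Its rise in the blocked fit (0.75 on the log2 scale, limma adjusted p = 0.0387) lay in experiment 1, where the ratio was 1.29, against 0.21 in experiment 2. It was 0.01 without IgG replicate 1 and 1.49 without IgG replicate 2. Kdm4b had 25.9 and 38.3 FPKM in 4E-T and 17.1 and 36.8 in IgG, and did not pass (log2 fold change 0.32). Phf8, an X-linked demethylase that binds methylated H3K4, had 7.19 and 9.26 FPKM in 4E-T, against 3.38 and 6.78 in IgG. It passed on FPKM only (log2 fold change 0.65, limma with the block, adjusted p = 0.0422), with 0.24 without IgG replicate 1 and 1.06 without IgG replicate 2. Its relative Kdm7a, at 0.36, did not pass.

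Of the 2 H3K27 demethylases Kdm6b passed on FPKM and on recovered reads, where 17.5% and 13.6% of all tested genes rose. It missed after quantile normalization (limma with the block, adjusted p = 0.135). Kdm6a did not pass, and the difference between the 2 genes was not tested. Kdm6b, which opposes Polycomb and is induced during neuronal differentiation, had 9.32 and 8.60 FPKM in 4E-T, against 3.61 and 6.56 in IgG. It rose by 0.75 on the log2 scale (limma with the block, adjusted p = 0.0158), and by 0.59 on recovered reads (adjusted p = 0.0217). The ratio was 1.16 in experiment 1 and 0.35 in experiment 2, and the fold change was 0.40 without IgG replicate 1. Kdm6a, its X-linked relative, had 10.4 and 11.5 FPKM in 4E-T and 6.34 and 10.3 in IgG. Its log2 fold change of 0.39 did not pass (limma with the block, adjusted p = 0.298), and its ratios were 0.64 and 0.14 in experiments 1 and 2.

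Median ratios were larger in experiment 1 than in experiment 2, for the 41 genes and for all tested genes. On FPKM 40 of 41 genes had a ratio above 0 in experiment 1 and 37 of 41 in experiment 2, with medians of 0.76 and 0.42. All tested genes had medians of 0.32 and 0.08. On recovered reads the counts were 40 and 29, with medians of 0.46 and 0.27, against 0.01 and -0.08 for all tested genes. Across the 41 genes the read-based ratios of the experiments had Pearson's r of 0.67 and Spearman's rho of 0.65. Across the 17651 tested genes r and rho were 0.63 each. Points of one experiment share their libraries. Without IgG replicate 1 limma on FPKM called 0 of 41 genes higher and 0 lower, against 4.86% of all genes called higher. Without IgG replicate 2 the medians were 0.90 and 0.40, with 41 and 40 genes above 0. On recovered reads Kmt2d came to 0.59 without IgG replicate 1 and to 1.35 without IgG replicate 2. In the same order Setd2 came to 1.03 and 0.79, and Setd7 to -0.92 and -0.45.

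**Figure D3:**
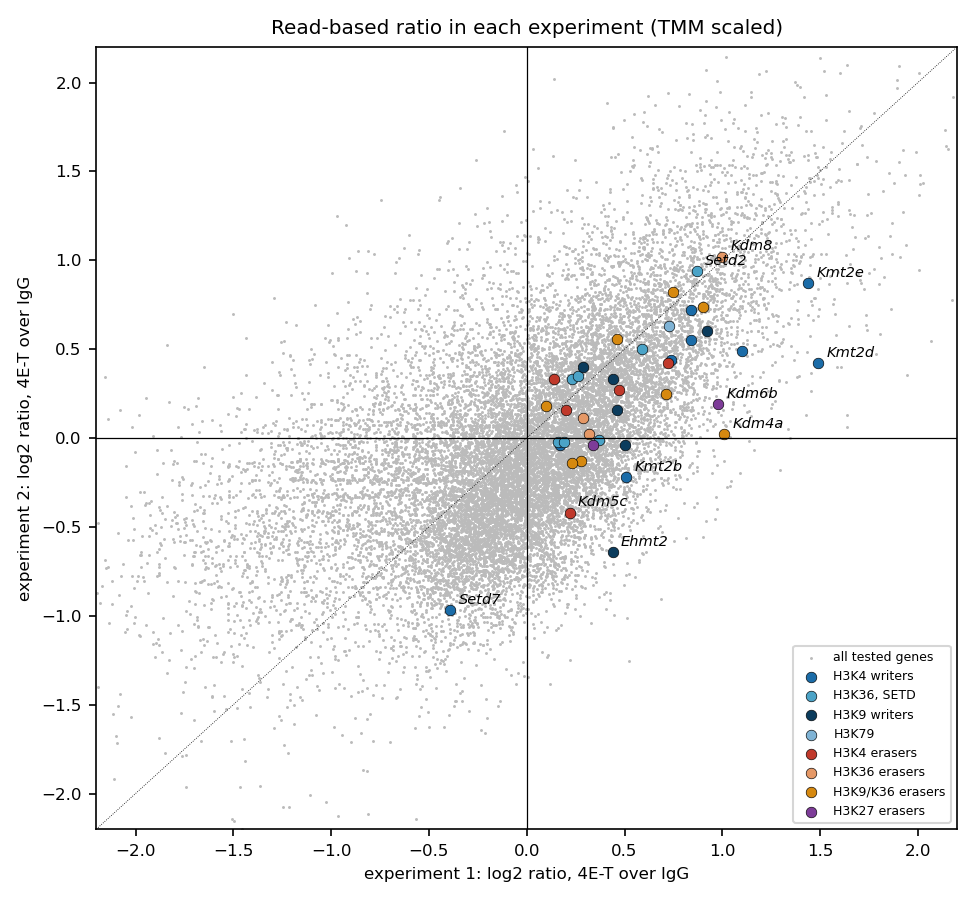
Log2 ratio of 4E-T to IgG in experiment 1 (x axis) and experiment 2 (y axis) from recovered reads scaled by TMM; grey points are all tested genes (57 lie outside the axes) and coloured points the 41 genes. Kdm8 and Setd2 lie near the diagonal, Kmt2d, Kdm6b and Kdm4a lie to the right with a small ratio in experiment 2, and Setd7 lies below 0 in both.

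Most of these genes were long. Exon length, recovered from reads and FPKM up to a constant, had a median of 2.32 times that of all tested genes, and 40 of 41 genes were longer than the median tested gene. Kmt2d was the longest at 7.10 times that median, followed by Kmt2a at 5.90 and Kmt2c at 5.36, and Kdm8 was the shortest at 0.86. Within the 41 genes length and read-based fold change had Pearson's r of 0.05 and Spearman's rho of 0.06. Over all 17651 tested genes the same r was 0.33 and rho 0.23. The tested genes were divided by length into 4 equal bins. From the shortest to the longest, median read-based log2 fold changes were -0.36, -0.04, 0.04 and 0.02. With the block on recovered reads 5.01%, 15.4%, 18.1% and 15.9% were called higher, so the shortest bin stood apart from the rest. The part of length in the enrichment of these genes was not tested.

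**Figure D4:**
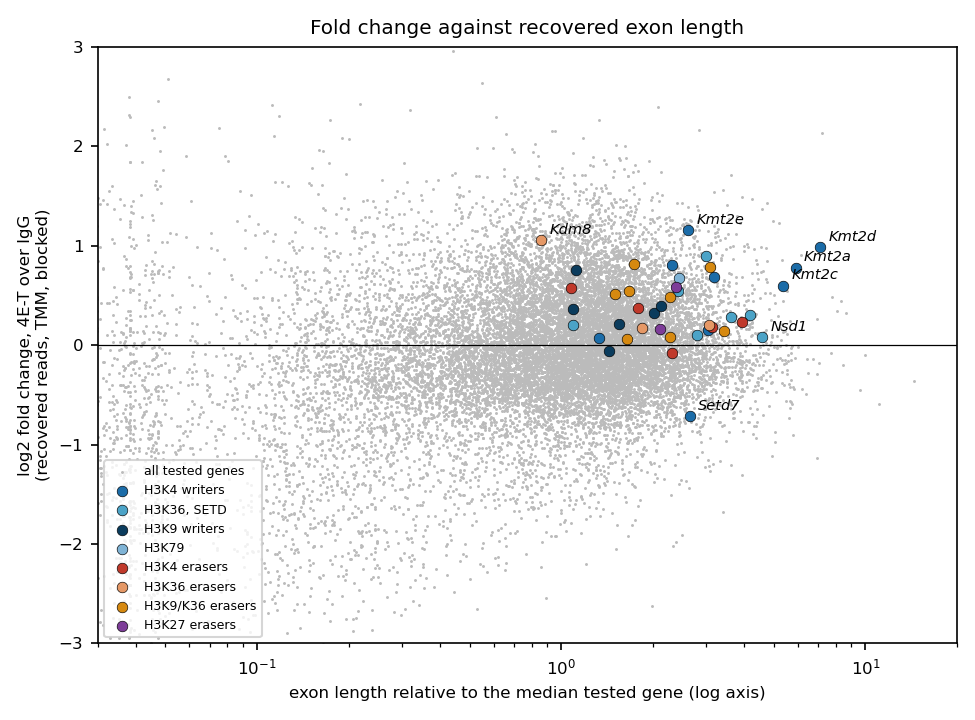
Read-based log2 fold change of 4E-T over IgG (blocked fit) against exon length relative to the median tested gene (log axis); grey points are all tested genes (267 lie outside the axes) and coloured points the 41 genes. Members lie right of 1 except Kdm8, and the short Kdm8 at 1.06 and the long Kmt2d at 0.99 have like fold changes.

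Promoter sequence is shown for 3 genes that rose together in all 3 blocked fits, Kmt2d, Setd2 and Kdm8, and for Setd7, which went the other way. Each line gives the 150 bases before the annotated start, 5′ to 3′ on the strand of the gene, from RefSeq on GRCm38.p6 (the build of mm10), with matches to the GC box GGGCGG or its reverse complement CCGCCC in capitals. The regions are chr15:98871206-98871355 (minus strand) for Kmt2d, chr9:110532447-110532596 (plus) for Setd2, chr7:125444470-125444619 (plus) for Kdm8 and chr3:51560824-51560973 (minus) for Setd7. The start used is that of the first window listed for each gene, which need not be the outermost start. The Kmt2d gene reaches to 98874077, so its line lies inside the gene. The Setd2 gene begins at 110532500, so part of its line lies inside the gene.
Kmt2d: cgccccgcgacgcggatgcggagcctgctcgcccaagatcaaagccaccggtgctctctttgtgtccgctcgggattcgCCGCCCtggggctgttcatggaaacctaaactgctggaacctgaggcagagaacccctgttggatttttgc
Setd2: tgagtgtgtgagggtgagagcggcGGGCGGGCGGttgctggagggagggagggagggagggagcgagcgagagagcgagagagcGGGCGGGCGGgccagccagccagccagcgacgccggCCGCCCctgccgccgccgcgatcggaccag
Kdm8: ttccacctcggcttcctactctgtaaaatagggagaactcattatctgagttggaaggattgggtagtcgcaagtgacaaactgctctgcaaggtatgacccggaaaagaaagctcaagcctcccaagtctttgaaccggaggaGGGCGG
Setd7: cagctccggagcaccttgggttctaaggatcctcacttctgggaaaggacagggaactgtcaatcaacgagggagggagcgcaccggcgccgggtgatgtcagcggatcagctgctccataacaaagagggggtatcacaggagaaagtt

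Setd2 held 5 matches, some of them overlapping, Kmt2d and Kdm8 held 1 each and Setd7 held 0 in these 150 bases. RefSeq windows of 300 bases (250 before and 50 after the start, the first listed for each gene) were matched by symbol for 28 of the 41 genes. The GC box was found on either strand in 19 of these 28 windows (67.9%), against 63.6% of the 11117 tested genes with a window. TATAAA on either strand was found in 0 of 28, against 6.94%. Median GC content was 62.8%, against 60.7%. A match describes letters in a window, not a bound site, and promoter letters were not measured in the precipitates.

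The lists of partners are read against the 17.5% of all tested genes that rose with the block on FPKM and the 13.6% that rose on recovered reads. Of the subunits that work with the H3K4 methyltransferases, 6 of 13 tested rose with the block on FPKM and 0 fell, with the same counts on recovered reads. Bod1l, a partner of Setd1a, had 19.2 and 28.1 FPKM in 4E-T, against 6.74 and 8.85 in IgG, the largest log2 fold change of the list at 1.47 (limma with the block, adjusted p = 1.96e-06). Wdr82, a subunit of the Setd1 complexes, was at the low end with -0.02 on FPKM and -0.29 on reads, and did not pass. Wdr5 and Dpy30, shared core subunits, had log2 fold changes of 0.57 and 0.24 and did not pass. Of the partners of LSD1, 3 of 11 tested rose (Rest, Rcor2 and Hmg20b) and 0 fell. Rest, the repressor of neuronal genes in non-neuronal cells, had 7.57 and 11.2 FPKM in 4E-T, against 2.11 and 4.96 in IgG, and rose by 1.25 on the log2 scale (limma with the block, adjusted p = 1.6e-05), with 0.78 without IgG replicate 1. Zmym3, at 0.36, was the lowest of that list and did not pass.

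Readers of methylated H3K4 and H3K36 had a higher median than the writers and erasers themselves. Of 23 tested, 16 rose with the block on FPKM and 0 fell, and 15 rose on recovered reads, with medians of 0.94 and 0.72. The members had medians of 0.56 and 0.36, and the difference between the lists was not tested. Brpf1, a scaffold of histone acetyltransferase complexes, had 36.8 and 29.7 FPKM in 4E-T, against 9.38 and 13.5 in IgG, and rose by 1.47 on the log2 scale (limma with the block, adjusted p = 6.68e-06). Spin1, a reader of trimethylated H3K4, was the lowest of the list with 49 and 60.4 FPKM in 4E-T and 39.7 and 89.1 in IgG. It was at -0.13 on FPKM and did not pass there, and it fell by 0.49 on the log2 scale after quantile normalization (limma with the block, adjusted p = 0.0255). Of the H3K9 readers and partners of Setdb1, 4 of 13 tested rose (Mphosph8, Cbx1, Morc2a and Atf7ip) and 0 fell on either scale. Mphosph8, a HUSH complex subunit that binds methylated H3K9, had 19.6 and 18.7 FPKM in 4E-T, against 6.17 and 6.20 in IgG, and rose by 1.49 on the log2 scale (limma with the block, adjusted p = 8.45e-07). The HP1 gene Cbx3, at 0.08, did not pass. Of the partners of Dot1l and the AF4 family genes, 2 of 9 rose on FPKM and 1 of 9 on reads, Aff3 in both, which is close to the shares of all genes.

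**Figure D5:**
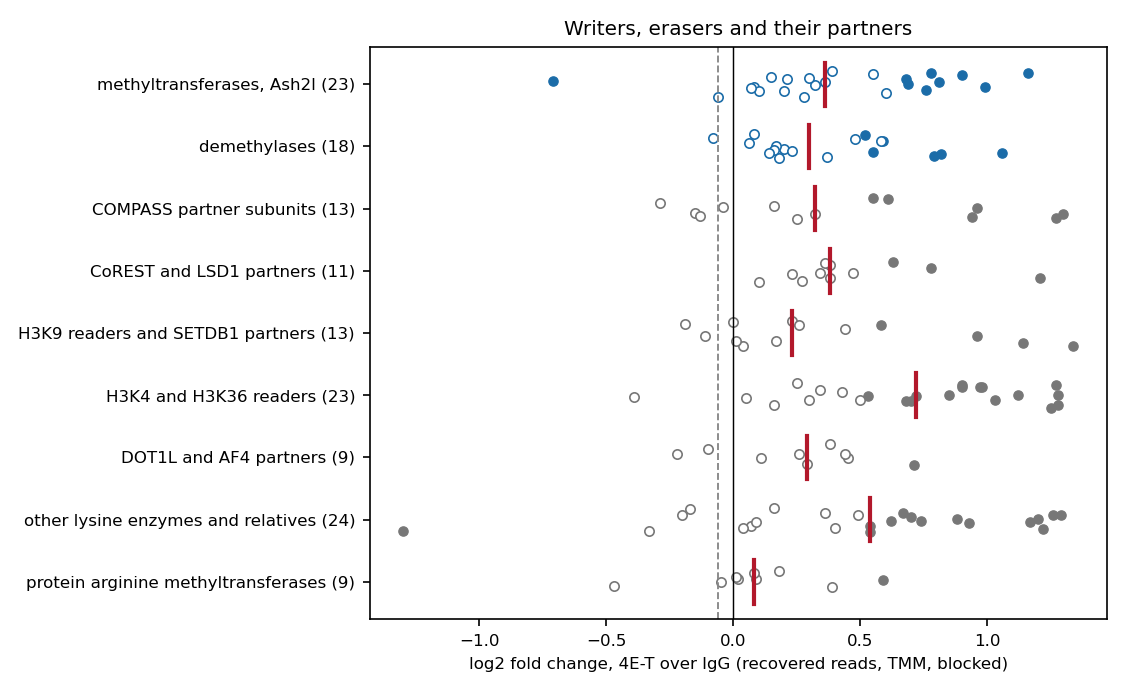
Read-based log2 fold change of 4E-T over IgG (blocked fit) for the methyltransferases with Ash2l, the demethylases and the lists of partners; each point is a gene, filled points have an adjusted p under 0.05, red bars are list medians, the dashed line is the median of all tested genes, and brackets give the genes tested. The H3K4 and H3K36 readers have the highest median, 0.72, and the arginine methyltransferases the lowest, 0.08.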

How the data were processed

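RNA precipitated with anti-4E-T or control IgG was measured in 4 libraries, paired by the experiment number in their titles. Per the submitters' processing notes, the authors used STAR 2.6.0c, HTSeq 0.6.1p2, FastQC 0.11.5, Trim Galore 0.5.0, DESeq and DESeq2 1.26.0, with mm10 as the genome. Strand setting and annotation release: not given in the sources used here. Per the labels' protocols, cDNA came from a SMART-Seq v4 kit and libraries from a Nextera XT kit. The authors deposited FPKM per library. Per the file headers, the authors' own comparison holds a p-value and its adjusted form, a Wald score, a mean normalized signal, a linear fold change, and a log2 fold change and its error. These are printed only as the authors' values.

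Reads were recovered from FPKM and the authors' deposited mean signal: 100% of values were whole within 0.001 reads, and every gene had at least 10 reads in all. Relative to IgG replicate 1, gene reads per unit of the FPKM denominator were 1.432 in 4E-T replicate 1, 1.84 in 4E-T replicate 2 and 1.67 in IgG replicate 2. The FPKM scale therefore differs between libraries, and read-based values are given beside it.

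Genes whose mean reached 1 FPKM were fitted with limma 3.58.1 (R 4.3.3) on log2(FPKM + 1), with trended, robust moderation, two-sided tests and Benjamini-Hochberg adjustment over all 17651 genes at 0.05. This scale understates changes of low genes. The first design had no block. Libraries of one experiment deviated together from their group means (correlation across genes 0.672, and 0.491 after quantile normalization), and the titles name the experiment, so blocked values are printed beside it. Limma-voom on recovered reads used TMM trims of 0.3 and 0.05. The fits were tested on simulated data with experiment effects, in which the designs with the block called part of the changed genes and the first design, without it, called none. Those effects were built into the simulation, so its outcome cannot show whether the block suits these data. Alternatives were quantile normalization, a pseudocount of 0.1, no filter, a minimum of 5 FPKM and leaving out each library. The rule for values in every library took each member called with or without the block and, in each role group, the highest level and the largest and smallest fold change (26 genes). Members and lists were chosen with earlier results of these data known, so counts within them are descriptions.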

Additional observations from a re-analysis of the deposited data

How the results depend on the processing

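Counts of called genes depended on the experiment block and on the scale, while the distance of the 41 genes from all genes changed less; the cause was not tested. Without a block 1 gene in all was called higher and 0 lower. With the block 3090 were higher and 784 lower on FPKM, 3057 and 773 with a pseudocount of 0.1, 1843 and 1630 after quantile normalization, and 2400 and 1941 on recovered reads. Without a block, quantile normalization, recovered reads and no filter gave 0 and 0, and a minimum of 5 FPKM gave 177 and 8. Members called higher numbered 0 without the block, and with it 18 on FPKM, 18 with a pseudocount of 0.1, 10 after quantile normalization and 14 on reads, where 1 was lower. Leaving out one library gave 2 to 2441 genes higher and 0 to 1094 lower, and 0 to 18 members higher. On FPKM the median of the members then ranged from 0.32 to 0.90, and their number above 0 from 32 to 41. On recovered reads the median was 0.36 without IgG replicate 1 and 0.40 without IgG replicate 2. Recovered reads without IgG replicate 1 or 2, chosen after seeing the data, gave 1294 and 500 genes higher, 398 and 634 lower, 5 and 2 members higher, and 1 and 0 members lower. The distance of members from all genes was 0.63 with no filter and 0.24 at a minimum of 5 FPKM, which 35 members passed. Fold changes that turned to below 0 with quantile normalization, with or without the block, were Nsd1 (-0.05), Nsd2 (-0.05), Ash2l (-0.07), Ehmt2 (-0.20), Kdm3b (-0.03), Kdm4b (-0.08) and Kdm5c (-0.18). On recovered reads they were Ehmt2 (-0.06) and Kdm5c (-0.08). Without IgG replicate 1 they were Setd3 (-0.01), Nsd1 (-0.05), Nsd2 (-0.04), Ash2l (-0.03), Ehmt2 (-0.49), Kdm3b (-0.13), Kdm4b (-0.21, and -0.22 on reads) and Kdm5c (-0.43, and -0.46 on reads). Kdm5c was -0.06 without 4E-T replicate 2, and Setd7 ranged from -0.74 without IgG replicate 1 to 0.08 without IgG replicate 2. Without IgG replicate 2 the others were at 0.92 (Setd3), 0.71 (Nsd1), 0.76 (Nsd2), 0.70 (Ash2l), 0.84 (Ehmt2), 0.78 (Kdm3b), 0.85 (Kdm4b) and 0.75 (Kdm5c). With 2 libraries a group, a library left out leaves a lone one that is assumed to vary like the other group.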

Other observations

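Of 24 other lysine methyltransferases and Jumonji proteins tested, outside the 41 genes, 14 rose with the block on FPKM and 0 fell, beside 17.5% and 4.44% of all tested genes. After quantile normalization 8 rose, beside 10.4% of all genes, and on recovered reads 13 rose, beside 13.6%, and Mecom fell. Without the block limma called 0. Setd6, which methylates non-histone proteins, had 27.6 and 30.3 FPKM in 4E-T, against 9.02 and 11.8 in IgG (log2 fold change 1.40, limma with the block, adjusted p = 1.46e-05). Jmjd6, a Jumonji protein that acts as a lysyl hydroxylase, had the largest change of the list, with 22.1 and 24.4 FPKM in 4E-T, against 6.64 and 9.55 in IgG (log2 fold change 1.43, limma with the block, adjusted p = 4.34e-06). Kmt5a, which monomethylates H4K20, had 44.7 and 55.8 FPKM in 4E-T, against 17.7 and 28.2 in IgG, a log2 fold change of 1.12. Mecom had 0.717 and 0.676 FPKM in 4E-T, against 2.70 and 0.445 in IgG, so its fall on reads (log2 fold change -1.30, limma adjusted p = 0.000576) lay in experiment 1, and its FPKM value was 0.23 without IgG replicate 1.

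Of 9 protein arginine methyltransferases tested, only Carm1 rose with the block on FPKM or on reads, which is near the 17.5% and 13.6% of all tested genes. It had 41.3 and 35.8 FPKM in 4E-T, against 19.0 and 23.2 in IgG (log2 fold change 0.84, limma adjusted p = 0.0218). The median of the list was 0.34 on FPKM and 0.08 on reads. Prmt1, the main enzyme of asymmetric arginine dimethylation, had 74.5 and 118 FPKM in 4E-T and 49.3 and 108 in IgG, and did not pass (limma with the block, adjusted p = 0.463). Prmt8 had 18.9 and 27.5 FPKM in 4E-T and 17.0 and 40.3 in IgG, and fell by 0.59 on the log2 scale only where quantile normalization and the block were combined (limma adjusted p = 0.00907). The difference from the lysine enzymes was not tested.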
